A study of Drosophila melanogaster with 72 samples.

Results

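In skeletal muscle of Drosophila melanogaster, 78 of 15682 measured genes were well below the level of the parental strain in both long-lived strains at every age and in the mean over the day. The genes were chosen from the measured levels themselves. For each gene the group mean of CPM (a gene's counts per M counts of its library) was taken and 0.5 was added. A gene was kept when O1 and O3 were each at or below 0.55 times B3 at 1 week, at 6 weeks and in the mean over 4 times of the day. A mean of at least 1 CPM over the day in B3 was also required, which 9376 genes met. Symbols starting with Cyp, Gst, Jon, Cec, Att or PGRP were left out by the choice, and 13 such genes would otherwise have been among them: AttA, AttB, AttC, CecA1, CecA2, CecC, PGRP-SA, PGRP-SB1, GstD3, GstD9, GstE1, Cyp12c1 and Cyp304a1. Of the 78 genes, 34 have a symbol in the count tables and 44 have an identifier only. All 78 passed the filter on low counts in each experiment; among the strains, B3 was where they were high.

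The study compared muscle of 3 strains: B3, the parental base strain, and O1 and O3, in which aging is delayed. One set of 18 libraries sampled each strain at 1 and at 6 weeks of age, with 3 libraries a group. A further set of 31 libraries followed the strains through a day, at zeitgeber times (hours of the light cycle) ZT0, ZT6, ZT12 and ZT18; the age of these flies is not given in the labels. The remaining 23 libraries sampled a pair of transgenic lines at these times: mhc, with the Mhc-Gal4 muscle driver alone, and mhc>timeless, where the driver turns on the clock gene timeless in muscle. Day-course groups held 3 libraries, with fewer at ZT0 in mhc>timeless, at ZT6 in B3 and in O3, and at ZT18 in B3 (2 each) and in O1 (1). No label gives the sex of the flies or says that replicates are separate animals, so p-values describe the spread between these libraries, which may be technical. The mhc flies carry a transgene that B3 does not, and the labels do not relate the genetic background of the transgenic lines to the strains.

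Depth per library, in M counts, was 15.5 to 35.7 for the age set, 39.5 to 89.96 for the day course of the strains and 53.1 to 169.99 for the transgenic lines. A count of 3, taken as the floor of detection, was 0.0841 to 0.194 CPM, 0.0333 to 0.0759 CPM and 0.0176 to 0.0565 CPM, for counting error only. All 20 listed muscle markers were measured, and their summed level was 21969 CPM or more in every library, so the label of muscle held. Markers of other tissues were present as well, and no listed marker was at 0 in all libraries. At 1 week the sum of 12 testis markers was 251, 706 and 1.08 CPM in the O3 libraries 1, 2 and 3, while the O1 libraries gave 1.05, 173 and 188 CPM and those of B3 gave 49.6, 15.5 and 6.16 CPM. O3 libraries 1 and 2 also had the highest accessory gland sums of that age, 691 and 1613 CPM. Results at 1 week that rest on these libraries are given with and without them. Leaving out O3 libraries 1 and 2, or O1 libraries 2 and 3, leaves 1 library in that group. The spread in those settings comes from the other groups, and a lost call may reflect the smaller group. The libraries are of whole muscle, so fewer cells of a type and less RNA per cell cannot be told apart.

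Many of the genes with a symbol belong to innate immunity, which in flies runs through a few pathways. The Imd and Toll pathways answer bacteria and fungi by switching on antimicrobial peptides. In the JAK/STAT pathway, cytokines of the Unpaired family bind the receptor Domeless and activate the transcription factor Stat92E, which switches on Socs36E, a feedback inhibitor, and Turandot stress peptides. STING senses cyclic dinucleotides and raises antiviral defence. Muscle fibres, fat body and hemocytes can all take part in these responses. CPM is not adjusted for gene length, so levels were compared between samples and not between genes.

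The 78 genes had a median ratio to B3 of 0.291 in O1 and 0.240 in O3 at 1 week, of 0.283 and 0.294 at 6 weeks, and of 0.252 and 0.256 over the day. Over all 9376 genes the same medians were 0.974, 0.9702, 1.00, 1.01, 0.997 and 1.01. These ratios chose the genes, and O1 and O3 are set against the same B3 libraries, so they are a description without a test. In O1, every library was below every B3 library for 74 genes at 1 week, 74 at 6 weeks and 67 over the day, where 26.8%, 31.4% and 9.51% of the 9376 genes were. In O3 the counts were 77, 75 and 66 genes, where 33.3%, 31.2% and 8.69% of all genes were. The single times of the day make up the mean that chose the genes, so the counts at each are a description too. At ZT0, ZT6, ZT12 and ZT18, 73, 74, 72 and 77 genes were at or below 0.55 times B3 in O1, with a background of 3.36%, 4.5%, 4.14% and 6.91% of genes. In O3 they were 73, 74, 70 and 76, with a background of 4.14%, 4.21%, 3.9% and 5.11%. Closest inside the limit were CG34215, CG16995 and CG13117, whose largest ratios were 0.534, 0.540 and 0.54991. Closest outside were CG5767, Neurochondrin and CG4496 at 0.556, 0.561 and 0.566.

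**Figure D1:**
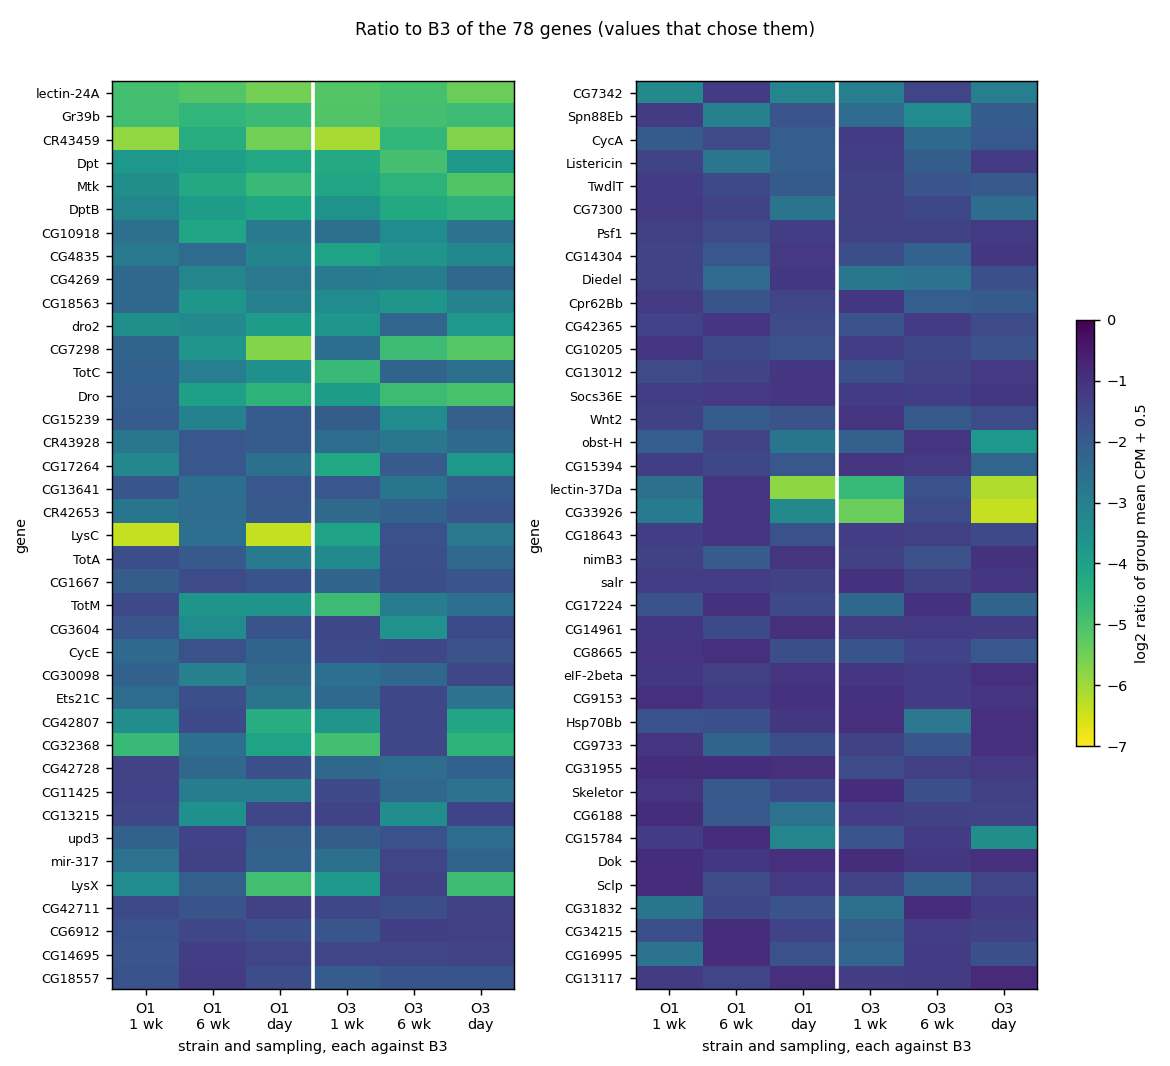
Ratio of O1 and O3 to B3 for the 78 genes, as log2 of the ratio of group mean CPM plus 0.5, with a column for each strain at 1 week, at 6 weeks and over the day. Genes are ordered by their largest ratio, from lectin-24A, Gr39b and CR43459 at the top left to CG13117, at 0.54991, at the bottom right. Darker cells are higher ratios.

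Among the genes of the JAK/STAT pathway, a cytokine, the feedback inhibitor and 3 Turandot peptides were low in O1 and O3, with a median of 0.342 over these 5 genes for the largest of a gene's 6 ratios. The cytokine upd3 was at 5.44, 4.37 and 4.31 CPM in the B3 libraries at 1 week, against 0.368, 0.870 and 0.699 CPM for O1 and 0.685, 0.840 and 0.729 CPM for O3. At 6 weeks B3 was at 6.19, 6.19 and 7.37 CPM, O1 at 0.876, 1.15 and 4.53 CPM and O3 at 0.747, 1.63 and 2.38 CPM. The groups did not overlap at either age, although 1 O1 library at 6 weeks came within 2 CPM of B3. The inhibitor Socs36E was at 60.2, 85.3 and 68.3 CPM in B3, 27.1, 30.4 and 28.5 CPM for O1 and 28.7, 28.6 and 34.4 CPM for O3 at 1 week. Over the day it ranged over 37.9 to 69.5 CPM (median 50.7) in B3, 22.5 to 26.1 CPM (median 23.5) in O1 and 19.7 to 25.9 CPM (median 23.2) in O3. Every library of the long-lived strains was below every B3 library.

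The secreted stress peptide TotA was at 1839, 1782 and 1501 CPM in B3 at 1 week, 587, 168 and 839 CPM for O1 and 147, 134 and 233 CPM for O3. At 6 weeks B3 was at 1881, 793 and 1879.8 CPM, O1 at 232, 247 and 687 CPM and O3 at 402, 414 and 574 CPM. The lowest B3 library was still above the highest O1 and O3 library at both ages. TotC, which lies next to TotA on chromosome arm 3R, was at 824, 784 and 718 CPM in B3 at 1 week against 146, 21.7 and 349 CPM for O1 and 26.6, 14.6 and 46.6 CPM for O3. TotM spread more widely, with 314, 108 and 95.2 CPM in B3, 33.2, 5.58 and 137 CPM for O1 and 5.23, 4.20 and 7.57 CPM for O3. One O1 library of TotM was above the lower 2 B3 libraries, so those groups overlapped. Not all of the pathway was as low. Stat92E, the Domeless gene dome and the Turandot gene TotX were looked up after these values were seen. In B3, O1 and O3 the day medians were 415, 367 and 344 CPM for Stat92E and 71.6, 53.6 and 54.0 CPM for dome. TotX had 83.1, 97.9 and 123 CPM. At both ages every O1 and O3 library was below every B3 library for Stat92E and dome, as for dome over the day. Means of hop, et and TotB, also looked up, were lower in O1 and O3 throughout, and those of os were not. The related cytokine upd2, also looked up afterwards, was at 1.10 to 1.52 CPM in B3 at 1 week and at 0.102 to 0.233 CPM in O1 and O3 together, but its day mean in B3 was too low for the choice.

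Genes tied to STING were among the 78 as well. CG1667 encodes Sting, the sensor itself. It was at 89.4, 69.7 and 89.2 CPM in B3 at 1 week, 18.5, 20.9 and 18.7 CPM for O1 and 17.3, 16.0 and 17.3 CPM for O3. At 6 weeks B3 was at 108, 78.6 and 108 CPM, O1 at 25.2, 24.4 and 44.2 CPM and O3 at 31.4, 26.1 and 33.5 CPM, again without overlap. The current annotation names CG33926 and CG13641 Srg3 and Srg1, for STING-regulated genes. CG33926 separated all 3 strains at 1 week, with 243, 200.3 and 250.5 CPM in B3, 35.3, 26.7 and 29.5 CPM for O1 and 4.36, 4.44 and 6.05 CPM for O3. CG13641 was at 25.7, 19.4 and 23.5 CPM in B3 at 6 weeks, 3.16, 4.20 and 3.28 CPM for O1 and 2.70, 3.87 and 2.61 CPM for O3. Diedel, a secreted immune regulator with relatives in insect viruses, was far less even. It was at 12.3, 2.12 and 0.549 CPM in B3 and 0.210, 0.307 and 4.02 CPM in O1 at 1 week. Thus 1 O1 library lay above 2 of the B3 libraries. CG42825 and vir-1, looked up after these values were seen, were not as low throughout. CG42825 had means of 228, 19.3 and 20.2 CPM in B3, O1 and O3 at 1 week. At 6 weeks they were 128, 52.2 and 158 CPM, where O3 overlapped with B3. Over the day they were 108, 6.38 and 7.27 CPM. For vir-1 the means were 1057, 950 and 754 CPM at 1 week and 2437, 1330 and 1308 CPM at 6 weeks. Over the day vir-1 was at 766, 638 and 677 CPM, with overlap.

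The 6 antimicrobial peptide genes had a median largest ratio of 0.156. Mtk (metchnikowin) was at 611, 232 and 403 CPM in B3 at 1 week, 37.2, 37.8 and 36.3 CPM for O1 and 11.5, 7.26 and 52.0 CPM for O3. At 6 weeks it was at 1298, 1553 and 1534 CPM in B3, 31.7, 118 and 82.5 CPM for O1 and 77.9, 50.9 and 61.1 CPM for O3. All O1 and O3 libraries were below all B3 libraries at both ages. The adjacent diptericin genes Dpt and DptB on arm 2R, classic Imd targets, shared this order. Dpt was at 1747, 1899 and 1489.8 CPM in B3 at 6 weeks, 11.3, 246 and 78.9 CPM for O1 and 47.1, 27.3 and 91.2 CPM for O3. DptB was at 810.4, 1150.2 and 1044 CPM in B3, 15.5, 117 and 69.6 CPM for O1 and 76.6, 33.5 and 45.6 CPM for O3. Again the strains did not overlap. The drosocin gene Dro was at 1551, 1752 and 1279 CPM in B3 at that age, 30.6, 126 and 135 CPM for O1 and 51.0, 35.4 and 76.6 CPM for O3. Listericin, an antibacterial peptide, differed less, with a largest ratio of 0.427. It was at 76.7, 119 and 112 CPM in B3 at 1 week, 43.1, 34.2 and 34.9 CPM for O1 and 38.3, 38.2 and 48.1 CPM for O3. The drosomycin-like gene dro2 was at 26.6, 12.7 and 12.1 CPM in B3, 0.684, 1.08 and 1.46 CPM for O1 and 0.289, 0.101 and 2.25 CPM for O3. Its relative dro4, looked up after these values were seen, went the other way, with a day median of 45.5 CPM in B3 against 145 CPM in O1 and 198 CPM in O3.

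Some genes of recognition and lysis were among the 78. With a day mean of at least 1 CPM in B3, 2 of 8 genes with a lectin- symbol and 2 of 6 with a Lys symbol met the limits. The C-type lectin gene lectin-24A was at 38.4, 37.1 and 38.4 CPM in B3 at 1 week, 0.526, 0.205 and 1.63 CPM for O1 and 0.577, 0.706 and 0.507 CPM for O3. At 6 weeks B3 was at 75.0, 56.8 and 62.9 CPM, O1 at 0.723, 1.08 and 2.27 CPM and O3 at 1.57, 1.36 and 1.82 CPM, so its B3 libraries were tight and stood far above the rest. On the same arm, 2L, lectin-24A and CG31955 are separated by a single annotated gene. A second C-type lectin, lectin-37Da, was at 297, 210.4 and 282 CPM in B3 at 1 week, 20.4, 51.3 and 59.5 CPM for O1 and 10.1, 6.55 and 12.5 CPM for O3. The lysozyme gene LysX was at 92.9, 64.5 and 62.1 CPM in B3 at 1 week, 0.105, 10.8 and 8.85 CPM for O1 and 3.61, 6.12 and 5.35 CPM for O3, with 1 O1 library at the floor. LysC is annotated as a pseudogene in a family of near-identical copies, so its reads are uncertain. It was at 44.7, 122 and 62.5 CPM in B3 at 1 week, 0.421, 0.512 and 0.349 CPM for O1 and 2.60, 0.471 and 9.35 CPM for O3. The serpin gene Spn88Eb, a protease inhibitor, was at 338, 369 and 359 CPM in B3 at 6 weeks, 26.9, 39.7 and 61.5 CPM for O1 and 27.6, 29.3 and 44.7 CPM for O3. The Nimrod-family gene nimB3 was at 14.6, 14.1 and 15.4 CPM in B3, 2.82, 3.71 and 3.32 CPM for O1 and 3.95, 4.05 and 4.26 CPM for O3. For both, no O1 or O3 library reached the lowest B3 library. The sum of 9 hemocyte markers at 1 week was 1278 to 1647 CPM in B3, 941 to 1256 CPM in O1 and 920 to 1468 CPM in O3. That of 15 gut markers was 5254 to 6762 CPM, 10764 to 12751 CPM and 5426 to 8738 CPM. That of 4 Malpighian tubule markers was 115 to 179 CPM in B3, 55.7 to 67.8 CPM in O1 and 79.1 to 94.1 CPM in O3. At that age tubule sums were thus lower in both strains than in B3 without overlap, hemocyte sums were lower in O1 and overlapped in O3, and gut sums were higher in O1. Tubule sums at 6 weeks went the other way, at 83.5 to 95.8 CPM in B3, 131 to 153 CPM in O1 and 122 to 130.4 CPM in O3, and their means over the day were 45.7, 23.2 and 24.6 CPM with overlap. The part of these tissues in the strain differences was not tested.

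Noncoding RNAs and another pseudogene made up 5 of the 78 genes. The long noncoding RNA CR43459 had a largest ratio of 0.0491, the lowest after lectin-24A and Gr39b. It was at 1535, 1282 and 1387 CPM in B3 at 1 week, 22.7, 23.6 and 24.4 CPM for O1 and 22.2, 15.6 and 22.9 CPM for O3. At 6 weeks B3 had 558, 532 and 453 CPM, O1 23.98, 21.2 and 29.1 CPM and O3 15.3, 22.999 and 21.9 CPM. The annotation places mir-277 and mir-34 within CR43459 and mir-317 next to it on arm 3R. The mir-317 entry, which counts reads of the locus and not the mature microRNA, was at 3.17, 3.94 and 3.04 CPM in B3 and at 0.0526 to 0.205 CPM in O1 and O3 at 1 week. The mir-277 entry held 0 counts in all libraries. That of mir-34, looked up after these values were seen, was near the floor. Its means in B3, O1 and O3 were 0.180, 0.0692 and 0.0773 CPM at 1 week. They were 0.179, 0.281 and 0.157 CPM at 6 weeks and 0.103, 0.139 and 0.0777 CPM over the day. The noncoding RNA CG32368 was at 284, 182 and 264 CPM in B3 at 1 week, 6.63, 8.45 and 11.2 CPM for O1 and 6.78, 6.08 and 10.01 CPM for O3. The pseudogene CR42653 was at 5.18 to 5.70 CPM in B3 at 1 week and 0.473, 0.563 and 0.175 CPM in O1. Over the day it had 0 counts in 9 of 10 O1 libraries. CR43928 was at 8.41, 4.49 and 7.01 CPM in B3 at 1 week, 0.841, 0.410 and 0.466 CPM for O1 and 0.794, 0.706 and 0.824 CPM for O3.

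The other named genes covered signalling, cell division and structure. Ets21C, a transcription factor of stress signalling, was at 15.3, 19.0 and 14.6 CPM in B3 at 1 week, 1.63, 2.92 and 3.09 CPM for O1 and 2.71, 2.72 and 2.66 CPM for O3. The secreted ligand gene Wnt2 was at 26.8, 32.4 and 30.6 CPM in B3 at 6 weeks, 7.004, 7.13 and 6.52 CPM for O1 and 7.33, 6.62 and 7.59 CPM for O3. The spalt-related gene salr, which in flies specifies the fibrillar flight muscle, was at 72.4, 74.8 and 72.6 CPM in B3 at 1 week, 30.0, 26.6 and 31.8 CPM for O1 and 35.8, 34.7 and 39.1 CPM for O3. Its 3 libraries lay close together in each strain. Dok, a docking protein of tyrosine kinase signalling, was at 30.2, 34.5 and 37.3 CPM in B3 at 1 week, 17.8, 17.5 and 17.6 CPM for O1 and 18.8, 15.2 and 19.5 CPM for O3.

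Of the genes of cell division, CycA, a cyclin of S phase and mitosis, was at 12.4, 13.6 and 17.6 CPM in B3 at 6 weeks, 4.07, 3.86 and 5.12 CPM for O1 and 1.96, 2.19 and 2.91 CPM for O3. CycB, a mitotic cyclin outside the 78 that was looked up after the values were seen, went the other way over the day. Its day mean was 1.08 CPM in B3, 16.9 CPM for O1 and 3.72 CPM for O3, with no overlap with B3. At 6 weeks CycB was at 0.662 to 2.08 CPM in B3 and 4.05 to 5.71 CPM in O1. O3 overlapped with B3 at that age, at 1.32 to 1.57 CPM. CycE, the cyclin of entry into S phase, was uneven in B3 over the day, at 1.77, 10.6 and 1.71 CPM at ZT0, 20.3 and 23.6 CPM at ZT6, 14.8, 1.48 and 7.13 CPM at ZT12 and 2.18 and 4.55 CPM at ZT18. O1 and O3 stayed at 1.29 to 2.35 CPM and 1.97 to 2.78 CPM, so the B3 libraries with the lowest values overlapped with them. Psf1, a subunit of the GINS complex of DNA replication, was at 4.79, 5.64 and 5.19 CPM in B3 at 1 week, 1.74, 1.89 and 1.75 CPM for O1 and 1.52, 1.95 and 1.77 CPM for O3. The translation initiation factor gene eIF-2beta was at 154, 153 and 151 CPM in B3, 75.6, 64.2 and 67.8 CPM for O1 and 68.6, 73.2 and 70.5 CPM for O3. Its libraries lay close together in each strain and were far apart between B3 and the others. CG18643, named Dtd for a deacylase that clears D-amino acids from tRNA, was at 18.7, 22.7 and 18.7 CPM in B3 at 6 weeks, 10.1, 8.65 and 9.65 CPM for O1 and 8.54, 7.12 and 7.20 CPM for O3.

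Gr39b, of the gustatory receptor family, was at 19.0, 21.6 and 20.7 CPM in B3 at 1 week, 0.210, 0.307 and 0.116 CPM for O1 and 0, 0.202 and 0.127 CPM for O3. Most O1 and O3 libraries were near the floor for it, and CG8665 next to it on arm 2L was also among the 78. CG6188 encodes Gnmt, the glycine N-methyltransferase that consumes S-adenosylmethionine. It was at 442, 437 and 564 CPM in B3 at 6 weeks, 102, 155 and 119 CPM for O1 and 175, 149.9 and 239 CPM for O3. Gnmt is also a fat body gene, and the sum of 11 fat body markers at that age was 7827 to 8667 CPM in B3, 9690 to 11456 CPM in O1 and 10816 to 11755 CPM in O3, so both were above B3. At 1 week the sum was 7204 to 9694 CPM in B3, 7189 to 10296.5 CPM in O1 and 6273 to 6950 CPM in O3, and its mean over the day was 8690 CPM in B3, 6803 CPM for O1 and 6288 CPM for O3. Fat body sums were thus lower than in B3 in O3 at 1 week and on average in both strains over the day, and their part in the results was not tested. CG9153, named Herc4 for a ubiquitin ligase family, was at 163, 180.3 and 172 CPM in B3, 92.6, 88.5 and 85.4 CPM for O1 and 83.5, 92.3 and 80.5 CPM for O3 at 1 week. Skeletor, a nuclear protein of the spindle matrix, was at 187, 212 and 209 CPM in B3 at 6 weeks, 51.2, 57.9 and 47.5 CPM for O1 and 70.9, 53.0 and 59.7 CPM for O3. Sclp was at 132, 123 and 113 CPM in B3, 37.9, 38.95 and 44.4 CPM for O1 and 26.9, 26.9 and 25.0 CPM for O3. Neither gene overlapped between B3 and the others. The Hsp70 family has near-identical copies, so Hsp70Bb is uncertain. Its B3 mean rested on 1 library at each age, with 10.9, 142 and 18.3 CPM at 1 week and 19.7, 308 and 35.0 CPM at 6 weeks, and the strains overlapped.

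Among 3 genes of cuticle and chitin, the cuticular protein gene Cpr62Bb was at 86.7, 79.1 and 88.4 CPM in B3 at 6 weeks, 23.4, 25.3 and 22.8 CPM for O1 and 22.7, 18.7 and 17.3 CPM for O3. TwdlT, of the Tweedle cuticle family, was at 10.2, 11.8 and 13.1 CPM in B3, 3.16, 3.90 and 3.79 CPM for O1 and 2.92, 2.78 and 2.94 CPM for O3. Both genes were lower in all O1 and O3 libraries than in any of B3. The chitin-binding gene obst-H was low and uneven, with 4.34, 0.243 and 1.65 CPM in B3 at 1 week. For the 34 genes with neither a symbol nor a described role here, the largest ratio had a median of 0.419. Among them, CG15784 was at 640.4, 821 and 782 CPM in B3 at 1 week, 208, 361 and 374 CPM for O1 and 181, 186 and 262 CPM for O3. CG42807 was at 967, 689 and 769.7 CPM in B3, 53.7, 80.1 and 88.4 CPM for O1 and 60.7, 63.5 and 66.9 CPM for O3. CG7298 ranged over the day from 3.75 to 68.9 CPM (median 29.7) in B3, 0 to 0.218 CPM (median 0.0753) in O1 and 0 to 1.30 CPM (median 0.0178) in O3. For these 3 genes no O1 or O3 library reached the lowest B3 library at either age.

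**Figure D2:**
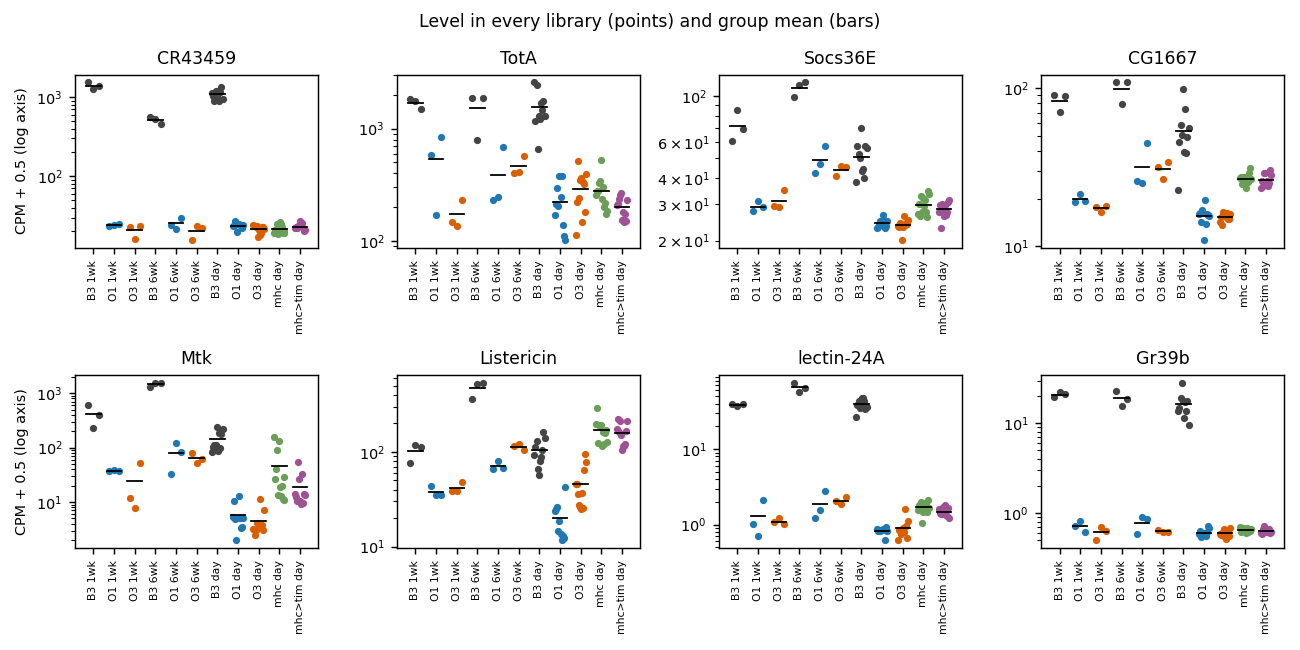
Level of 8 of the genes in every library, as CPM plus 0.5 on a log axis, for B3, O1 and O3 at 1 week, at 6 weeks and over the day and for the transgenic lines over the day. Points are libraries and bars are group means. CR43459 is near 20 CPM in O1, O3 and mhc and at 453 CPM or more in B3. Listericin in mhc overlaps with or lies above B3 at 1 week and over the day, and is below B3 at 6 weeks.

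By position, 7 of the 78 genes were on the X chromosome, 23 on 2L, 15 on 2R, 16 on 3L and 17 on 3R, with none on chromosome 4. The share on X was 8.97% where 16.3% of the 9308 placed genes of at least 1 CPM lay, and the share on 2L was 29.5% against 18.0%. No test was made of these shares. Adjacent in the gene order were CG17224 and CG17264, Gr39b and CG8665, CG13215 and Listericin, Dpt and DptB, CG42728 and obst-H, mir-317 and CR43459, and TotA and TotC. Of the 78 genes, 29 overlap another measured gene, and the strand setting of the counting is not given, so such pairs may share reads. All arms and neighbours are those of the RefSeq annotation of Release 6, while the counts were made on the older build dm3.

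The choice set no limit on change with age within a strain, which was tested with edgeR's quasi-likelihood test. It did use the levels of these same libraries at both ages. The counts are thus not independent of the choice, and the shares of all genes beside them are a description. In B3, 37 of the 78 genes rose between 1 and 6 weeks and 5 fell, where 21.8% and 20.0% of all 12445 tested genes rose and fell. In O1, 23 rose and 3 fell, against 10.4% and 12.4% of all genes. In O3, 43 rose and 8 fell, against 22.8% and 27.4%. The median log2 change of the genes was 0.59 in B3, 0.51 in O1 and 0.91 in O3, and that of all genes -0.03, -0.03 and -0.00. Without O3 libraries 1 and 2 of 1 week fewer genes were called in O3, but that left 1 library in the group. The part of the content of these libraries in the drop was not tested. Over the same span the summed level of 20 muscle markers went from 54687 to 59559 CPM down to 34078 to 37003 CPM in B3, from 47267 to 58156 CPM down to 26093 to 27560 CPM for O1, and from 58695 to 63601 CPM down to 21969 to 24248 CPM in O3. The part of this shift in the changes below was not tested.

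In all 3 strains 15 of the genes rose, where 6.96% of all genes did, and 1, CG13012, fell, where 7.63% did. Among the 15 were Socs36E, Listericin, Wnt2, Skeletor, eIF-2beta and CG18643; the other 9 were CG13117, CG14961, CG15394, CG15784, CG18557, CG34215, CG3604, CG4269 and CG42728. CG3604 was at 2.39, 3.09 and 3.08 CPM in B3 at 1 week and 32.5, 43.9 and 43.1 CPM at 6 weeks, a log2 change of 3.67 ± 0.27 with an adjusted p of 1.02e-07. It rose by 2.72 ± 0.30 in O1 and by 1.97 ± 0.27 in O3 on the same scale. The change of eIF-2beta was small and even, at 0.79 ± 0.08 in B3, 0.51 ± 0.08 in O1 and 0.63 ± 0.08 in O3. Wnt2 rose by 1.46 ± 0.15 in B3, with an adjusted p of 2.84e-06, by 0.76 ± 0.15 in O1 and by 0.53 ± 0.15 in O3. For these 3 genes the 6-week libraries of a strain were all above its 1-week libraries. CG13012 changed by -0.48 ± 0.07 in B3, -0.37 ± 0.08 in O1 and -0.26 ± 0.08 in O3. Socs36E lost its call in B3 without B3 library 1 of 1 week, at an adjusted p of 0.0622. Without O3 libraries 1 and 2 of 1 week, 5 of the 15 did not pass in O3: Socs36E, Wnt2, Skeletor, CG15784 and CG18643, at adjusted p-values of 0.721, 0.118, 0.0713, 0.115 and 0.112. Without O1 libraries 2 and 3 of 1 week, 7 of the 15 did not pass in O1: Listericin, Skeletor, CG14961, CG42728, Socs36E, CG4269 and CG18557, at adjusted p-values of 0.309, 0.282, 0.12, 0.116, 0.1135, 0.085 and 0.0613. Some calls were close to the threshold. CG13012 in O3 had an adjusted p of 0.0512 with no filter, CG15784 in B3 had 0.0513 with RLE scaling and 0.0524 with no filter, and Socs36E in O3 had 0.0754, 0.0522 and 0.0630 with RLE scaling, no filter and DESeq2.

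In B3, 5 of the 6 antimicrobial peptide genes rose with age. Dro rose from 289, 102 and 119.5 CPM to 1551, 1752 and 1279 CPM, a log2 change of 3.06 ± 0.64 with an adjusted p of 0.00144. Listericin rose from 76.7, 119 and 112 CPM to 362, 521 and 538 CPM, by 2.08 ± 0.20 with an adjusted p of 1.23e-06. Dpt, DptB and Mtk changed by 3.07 ± 1.04, 2.41 ± 0.88 and 1.70 ± 0.61, and their calls were lost when certain single B3 libraries were left out: 2 or 3 of 1 week or 1 or 2 of 6 weeks for Dpt, any of the 6 for DptB, and all but library 1 of 1 week for Mtk. dro2 changed by 1.28 ± 0.79 in B3, with an adjusted p of 0.215. Of the 6, Listericin rose in O1, and Listericin, Dro and dro2 rose in O3, where Dro and dro2 did not pass without libraries 1 and 2 of 1 week, at adjusted p-values of 0.379 and 0.284. Listericin did not pass in O1 without O1 libraries 2 and 3 of 1 week, at 0.42 with an adjusted p of 0.309. In O1 the change was 1.09 ± 0.61 for Dro and 0.85 ± 0.61 for Mtk, with adjusted p-values of 0.245 and 0.389. Dpt and DptB changed there by 2.82 ± 1.06 and 1.68 ± 0.89, with adjusted p-values of 0.0737 and 0.212. In O3, Dpt, DptB and Mtk changed by 2.37 ± 1.04, 1.65 ± 0.88 and 1.23 ± 0.61. Their adjusted p-values there were 0.0730, 0.135 and 0.108. The difference in age change between O3 and O1, tested after the data were seen, was called for 1 of the 78 genes, CG33926, where 0.104% of all genes were. It was called for 10 without O1 libraries 2 and 3 of 1 week, for 3 without O3 library 3 of 1 week and for 2 by DESeq2, while 2199, 1040 and 285 genes were called in all. The age change of B3 was not tested against theirs. Of the other 30 tested genes of the Toll and Imd pathways, 20 rose and 1 fell in B3, 1 rose and 3 fell in O1, and 11 rose and 1 fell in O3, with median log2 changes of 0.72, 0.02 and 0.31. The 8 genes of that list that the choice left out by name met its other limits. Their counts are thus not independent of the choice either. All 8 rose in B3, with a median of 2.97, where 21.8% of all genes rose. In O1, 0 of the 8 were called, with a median of 1.15, where 10.4% of all genes rose. In O3, 4 of the 8 rose, with a median of 1.13, where 22.8% of all genes rose. The sum of 9 hemocyte markers was 1278 to 1647 CPM in B3 at 1 week and 1494 to 1560 CPM at 6 weeks, and its part in these changes was not tested.

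Other genes that rose in B3 were Spn88Eb, at 2.36 ± 0.32 with an adjusted p of 4.16e-05, CG13215 at 2.67 ± 0.29, Skeletor at 1.49 ± 0.14, nimB3 at 0.79 ± 0.15 and TwdlT at 0.64 ± 0.18. The 5 genes that fell in B3 were LysC, CG7342, mir-317, CR43459 and CG13012. CR43459 changed by -1.57 ± 0.17 with an adjusted p of 5.82e-06, and all 3 of its B3 libraries at 6 weeks were below all 3 at 1 week. Its change was -0.14 ± 0.18 in O1 and -0.17 ± 0.18 in O3, with adjusted p-values of 0.696 and 0.444. mir-317, its neighbour, changed by -1.77 ± 0.44 in B3 with an adjusted p of 0.00464. LysC had the steepest fall, from 44.7, 122 and 62.5 CPM to 3.14, 1.40 and 6.06 CPM, or -4.57 ± 0.82. CG7342 changed by -2.23 ± 0.18 in B3 and by -0.71 ± 0.18 in O3, where its adjusted p was 0.00713, or 0.0691 without O3 libraries 1 and 2 of 1 week.

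A further group rose in the long-lived strains. CG33926, the STING-regulated gene, went from 35.3, 26.7 and 29.5 CPM to 112, 95.3 and 163 CPM in O1, a log2 change of 1.80 ± 0.21 with an adjusted p of 1.71e-05. In O3 it went from 4.36, 4.44 and 6.05 CPM to 77.3, 73.1 and 98.0 CPM, a change of 3.90 ± 0.23 with an adjusted p of 1.44e-08. In B3, where it was at 200.3 CPM or more in all 6 libraries, the change was 0.02 ± 0.20 with an adjusted p of 0.949. The adjacent genes CG17224 and CG17264 rose by 0.92 ± 0.12 and 1.77 ± 0.25 in O1 and by 1.53 ± 0.13 and 2.89 ± 0.26 in O3. In B3 they changed by 0.20 ± 0.12 and 0.33 ± 0.22, with adjusted p-values of 0.216 and 0.261. Ets21C rose by 1.21 ± 0.25 in O1 and 1.40 ± 0.25 in O3. CG42807 rose by 2.11 ± 0.36 and 2.44 ± 0.37. The O3 rises of these 5 genes were past the threshold without O3 libraries 1 and 2 of 1 week too, and their O1 rises without O1 libraries 2 and 3. Sclp fell in both strains, with log2 changes of -0.65 ± 0.09 in O1 and -0.69 ± 0.09 in O3.

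**Figure D3:**
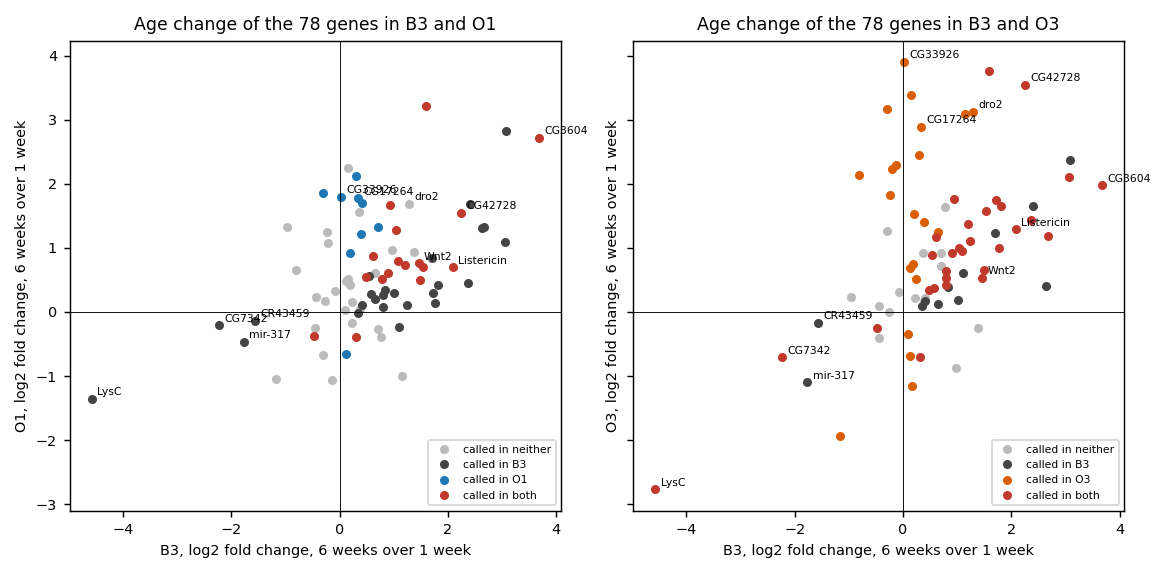
Change between 1 and 6 weeks of the 78 genes as log2 fold change, in B3 on the x axis and in O1 (left) or O3 (right) on the y axis. Each point is a gene, coloured by the strains in which its change passed an adjusted p of 0.05; LysC is lowest in B3 at -4.57 and CG3604 is highest there at 3.67, while CG33926 is near 0 in B3 and at 1.80 in O1 and 3.90 in O3.

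O1 and O3 were tested against each other, since the choice treats both alike and does not order them. It does limit both in these same libraries, so the counts are not independent of the choice. At 1 week, 0 genes were higher in O3 and 9 were lower by edgeR's quasi-likelihood test, where 3.42% and 3.21% of all tested genes were. At an unadjusted p under 0.05, 5 genes were higher and 18 lower, and DESeq2 called 1 higher and 13 lower. CG33926 had a log2 difference of -2.62 ± 0.22 with an adjusted p of 1.34e-05, and its O1 and O3 libraries did not overlap. lectin-37Da, CG42728, CG31955 and Sclp differed by -2.14 ± 0.43, -2.11 ± 0.43, -0.73 ± 0.14 and -0.53 ± 0.09. The count was 5 without O3 library 1 and 14 without O1 library 2. Without O3 libraries 1 and 2 it was 2, with CG33926 still called, and the adjusted p-values of lectin-37Da, CG42728, CG31955 and Sclp were 0.21, 0.146, 0.199 and 0.138. Without O1 libraries 2 and 3 it was again 9 in both directions together, 5 of them shared, and lectin-37Da and CG31955 did not pass, at -1.14 and -0.49 with adjusted p-values of 0.14 and 0.0972. At 6 weeks 1 gene, Listericin, was higher in O3, at 0.75 ± 0.19, and 2 were lower, where 3.86% and 1.31% of all genes were. Those were Sclp at -0.57 ± 0.09, with an adjusted p of 0.00224, and CG4835 at -2.74 ± 0.74. Sclp kept its call whichever library was left out, while Listericin and CG4835 lost theirs without any one of the 6 libraries of O1 and O3 at 6 weeks, so that the count was 1; it was 6 without O1 library 1 of 1 week.

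Over the day 12 of the 78 genes were higher in O3 than in O1 and 14 were lower, where 13.3% and 17.4% of all 12295 tested genes were, so the shares were near the background. CG33926 was at 11.8 to 38.5 CPM (median 21.8) in O1 and 1.27 to 2.74 CPM (median 2.13) in O3. Its log2 difference was -3.39 ± 0.19 with an adjusted p of 4.30e-12, without overlap. LysC was at 0.0968 to 0.456 CPM (median 0.217) in O1 and 3.16 to 22.8 CPM (median 7.22) in O3, a difference of 5.13 ± 0.40 with an adjusted p of 1.32e-09. Every O3 library was above every O1 library, and several O1 libraries were near the floor. Listericin and CG6188 were higher in O3, by 0.91 ± 0.10 and 1.17 ± 0.18. The neighbours CG17224 and CG17264 differed by -0.76 ± 0.09 and -1.56 ± 0.18, obst-H by -2.22 ± 0.40 and Cpr62Bb by -0.58 ± 0.08. Of the antimicrobial genes, Mtk differed by -0.49 ± 0.34 and Dpt by 0.26 ± 0.61, with adjusted p-values of 0.295 and 0.800.

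Time of day was tested jointly over the 4 times in each line. It was called for 19 of the 78 genes in B3, 8 in O1 and 16 in O3, where it was called for 11.2%, 10.9% and 17.0% of all genes. In the transgenic set it was called for 20 genes in mhc and 13 in mhc>timeless, with 22.6% and 19.1% over all genes. The count in O3 was 10 without O3 library C of ZT0. Listericin was at 161 and 139 CPM in B3 at ZT18 and 65.9 and 56.8 CPM at ZT6, with an adjusted p of 0.000386 for time of day. O3 was at 64.2, 94.1 and 77.7 CPM at ZT18 and 26.8 and 25.8 CPM at ZT6, with an adjusted p of 8.07e-07. O1 was at 41.7 CPM in its single library at ZT18 and 11.2, 12.5 and 11.7 CPM at ZT12, with an adjusted p of 7.39e-06. The gene was thus highest at ZT18 in each strain. In mhc the mean was highest at ZT0, with 198, 290.2 and 124 CPM, and the adjusted p was 0.188.

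TwdlT had its highest mean at ZT0 and its lowest at ZT12 or ZT18 in all 5 lines. It was at 12.7, 11.1 and 12.7 CPM at ZT0 and 4.83, 5.59 and 6.53 CPM at ZT12 in B3, with an adjusted p of 0.000471. In mhc it was at 4.81, 4.38 and 3.63 CPM at ZT0 and 1.69, 2.04 and 1.70 CPM at ZT18, with an adjusted p of 4.75e-06. In mhc>timeless it was at 5.21 and 5.94 CPM and 2.13, 2.40 and 2.62 CPM at these times, with an adjusted p of 1.94e-05. The libraries of the high and low times did not overlap in these lines. CG15784 was lowest at ZT0 in B3, with 581, 573 and 771 CPM against 1337 and 1353 CPM at ZT18, and its adjusted p was 2.23e-05. In O3 it was at 64.9, 65.9 and 68.5 CPM at ZT0 and 136 and 136 CPM at ZT6, with an adjusted p of 0.000151. The flight muscle regulator salr was called in all 3 strains. In B3 it was lowest at ZT0, with 56.9, 70.7 and 70.3 CPM, and at 93.4 and 110.1 CPM at ZT6. In O3 it was highest at ZT0, with 44.4, 49.0 and 44.0 CPM, and at 34.1, 35.6 and 33.6 CPM at ZT12. In O1 it was at 30.5, 30.1 and 27.5 CPM at ZT0 and 36.2, 35.9 and 34.6 CPM at ZT12. The daily course differed between O3 and O1 for 1 of the 78 genes, salr, where it did for 0.0488% of all genes, in a test chosen after the data were seen.

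**Figure D4:**
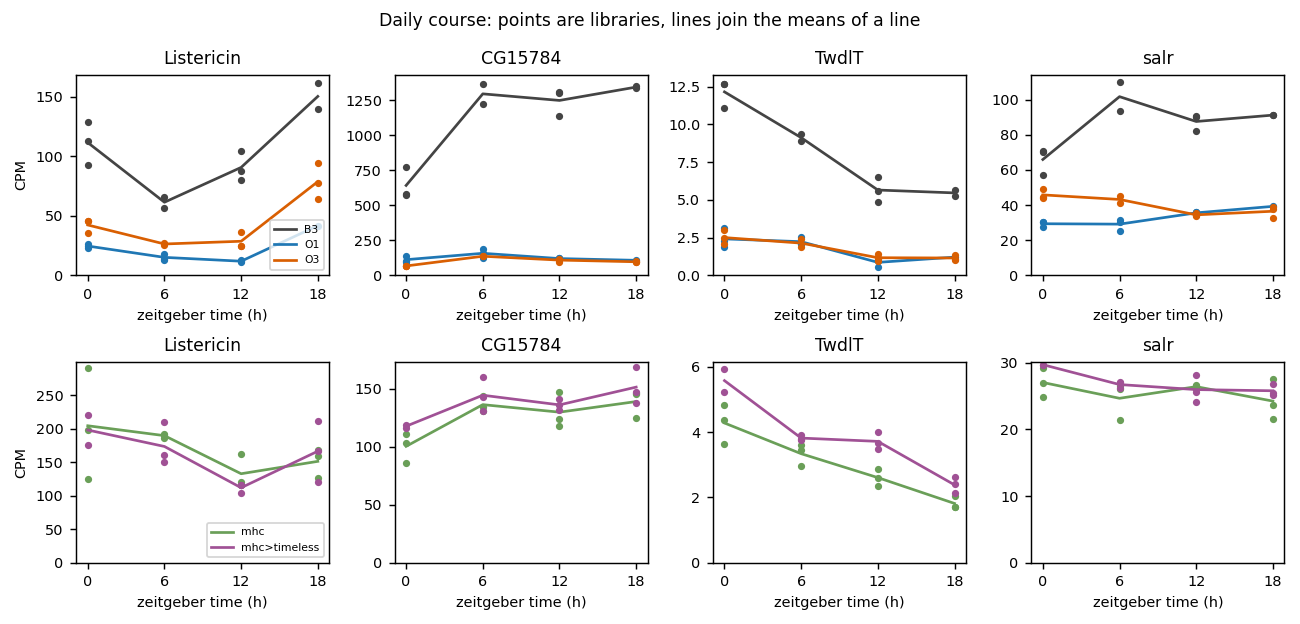
Daily course of Listericin, CG15784, TwdlT and salr in B3, O1 and O3 (top) and in mhc and mhc>timeless (bottom), as CPM against zeitgeber time in hours. Points are libraries and lines join the means of a line; Listericin is highest at 18 h in B3, O1 and O3, and TwdlT falls from 0 h to 12 or 18 h in every line.

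The mhc line, which is neither B3 nor a long-lived strain and whose levels did not choose the genes, was on the low side for most of them. Over the day its mean was at or below 0.55 times B3 for 47 of the 78 genes, where it was for 3.2% of the 9376 genes. For 18 genes it was above B3 and for 13 between. For 41 genes the highest of 12 mhc libraries was below the lowest of 10 B3 libraries. The shares of all genes for the counts of 18, 13 and 41 were not computed, so these are not read further. The sets were sequenced separately, so these levels are a description without a test. They share the B3 libraries with the choice. CR43459 was at 18.3 to 25.8 CPM (median 20.1) in mhc, against 886 to 1328 CPM (median 1085) in B3 and 19.3 to 26.8 CPM (median 23.4) in O1. Gr39b was at 0.1005 to 0.195 CPM (median 0.160) in mhc and 9.04 to 27.9 CPM (median 15.6) in B3. For TotA the range was 172 to 525 CPM (median 266) in mhc against 659.7 to 2588 CPM (median 1384) in B3. In these 3 genes mhc was close to O1 and O3 and apart from B3.

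Other genes were as high in mhc as in B3 or higher. eIF-2beta was at 125 to 137 CPM (median 131) in mhc and 104 to 183 CPM (median 124) in B3. Listericin was at 115 to 290.2 CPM (median 165) in mhc and 56.8 to 161 CPM (median 98.6) in B3. LysC was at 52.8 to 104 CPM (median 75.5) in mhc and 29.2 to 109 CPM (median 55.7) in B3. CG42728 was at 17.9 to 34.0 CPM (median 24.7) in mhc and 2.47 to 15.2 CPM (median 8.57) in B3. For eIF-2beta, Listericin and LysC the mhc and B3 libraries overlapped, while O1 was lower than either. O3 was lower than either for eIF-2beta and LysC, and for Listericin its highest libraries, at ZT18, overlapped with B3. Dpt in mhc was dominated by 1 library at ZT18, at 1035 CPM, where the others ranged from 14.4 to 170.3 CPM.

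With timeless driven in muscle, 7 of the 78 genes were higher over the day than in mhc and 11 were lower, where 8.68% and 9.75% of all 12727 tested genes were. The count was 11 without mhc>timeless library 3 of ZT0, which leaves that group with 1 library. Hsp70Bb had the smallest adjusted p. It was at 4.22 to 6.90 CPM (median 5.60) in mhc and 20.4 to 29.6 CPM (median 23.4) in mhc>timeless, a log2 change of 2.16 ± 0.06 with an adjusted p of 3.10e-14. Every mhc>timeless library was above every mhc library. Its family has near-identical copies, so its reads are uncertain. The mhc line has the driver alone, so the presence of a timeless transgene and its expression cannot be told apart for any gene. CR42653, the pseudogene, was at 0.00595 to 0.360 CPM (median 0.0424) in mhc and 0.738 to 1.30 CPM (median 0.952) in mhc>timeless, where several mhc libraries were near the floor, a fitted change of 3.43 ± 0.54 with an adjusted p of 0.000218. TwdlT rose by 0.35 ± 0.06 with an adjusted p of 0.000489, and CG13215 by 1.35 ± 0.25. Depth differed between the lines at ZT0, ZT6 and ZT12, where mhc libraries held 53 to 72 M counts and the others 124 M or more. At ZT18, where depth was alike, 3 of the genes were called, where 2.66% of all genes were: Hsp70Bb at 2.16 ± 0.12, CG15394 at -0.46 ± 0.11 and Dpt at -4.71 ± 1.16. Dpt in mhc at ZT18 was dominated by 1 library. The part of depth in the calls other than these 3 was not tested.

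Among the genes lower in mhc>timeless, TotA was at 172 to 525 CPM (median 266) in mhc and 147 to 265 CPM (median 209.6) in mhc>timeless, a change of -0.44 ± 0.09 with an adjusted p of 0.00226 and with overlap. CG42728, LysC and CG15394 changed by -0.56 ± 0.11, -0.30 ± 0.05 and -0.26 ± 0.06. Dpt and Dro changed by -1.95 ± 0.55 and -1.34 ± 0.39, but lost their calls without mhc>timeless library 2 or 3 of ZT0. Of the other 28 tested genes of the Toll and Imd pathways, 11 were called lower and 0 higher, with a median log2 change of -0.10. Over all genes 9.75% were called lower and 8.68% higher. At ZT18, where depth was alike, 2 of the 28 were called, each lower, where 1.6% of all genes were lower. CR43459 changed by 0.09 ± 0.04 with an adjusted p of 0.190, and Sting (CG1667) by -0.05 ± 0.04 with an adjusted p of 0.445. The course over the day was not called as different between mhc and mhc>timeless for any of the 78 genes (0 by edgeR's quasi-likelihood test, 10 at an unadjusted p under 0.05), where 0.126% of all genes were called.

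**Figure D5:**
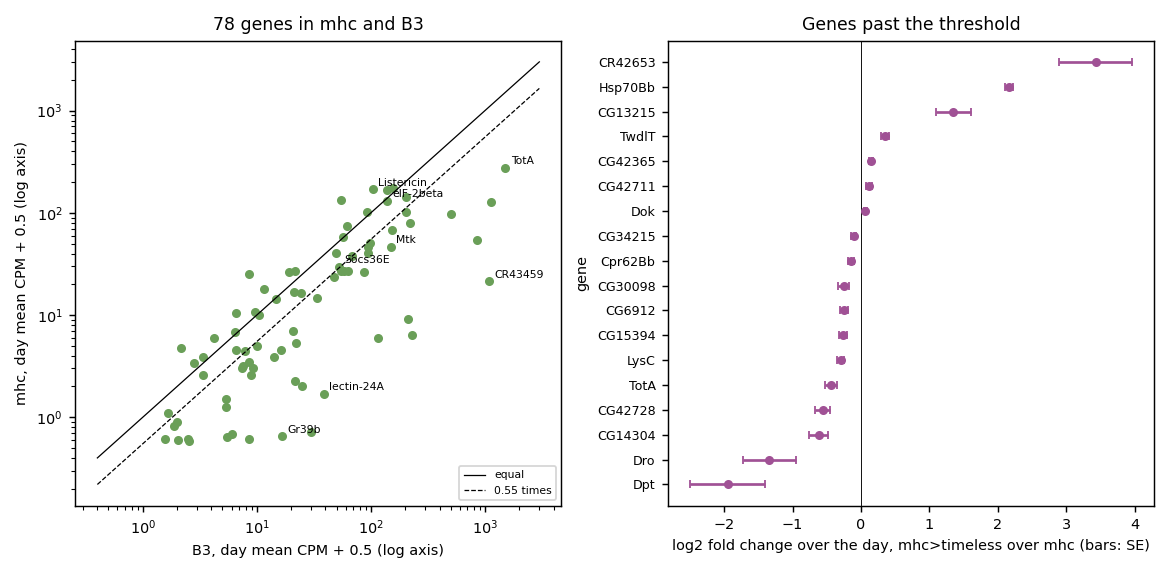
Left, day mean CPM plus 0.5 of the 78 genes in mhc against B3, on log axes, with lines of equal level and of 0.55 times B3; 47 genes lie on or below the lower line. Right, log2 fold change over the day of mhc>timeless over mhc with its SE for the 18 genes past an adjusted p of 0.05, from Dpt at -1.95 to CR42653 at 3.43.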

How the data were processed

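The authors deposited 1 table of raw counts per library, whole reads per gene with no normalization, for 72 libraries of skeletal muscle. The build dm3 and the tools HTSeq, STAR and BWA, without version or role, are recorded per the submitters' processing notes, and the libraries are called stranded mRNA per the labels. The gene annotation behind the counts and whether strand was used are not given in the sources consulted. Summary entries without a gene entered neither totals nor tests. Reads in no feature came to 13.0 to 27.9%, 7.11 to 16.5% and 7.12 to 10.2% in the age, day and transgenic sets. In the age set they were 20.8 to 27.9% at 1 week and 13.0 to 17.6% at 6 weeks. The part of this difference in the changes with age was not tested. For every 100 counted reads, 0.419 to 0.686 had no unique position in the age set, against 19.8 to 45.4 and 7.53 to 11.8 in the others, so genes with near-identical copies are uncertain.

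CPM is a gene's count per M counts over all genes of its library. Each experiment was fitted on all its genes in edgeR 4.0.16 (R 4.3.3) with a mean per group, filterByExpr and TMM factors of 0.891 to 1.09, 0.956 to 1.06 and 0.971 to 1.03, which left 12445, 12295 and 12727 genes. Tests were edgeR quasi-likelihood F-tests, two-sided, with Benjamini-Hochberg adjustment over all genes tested; the threshold for a call was an adjusted p of 0.05. Every adjusted p of a single gene comes from them. Changes are log2 fold changes ± SE, and a contrast over the day weights the 4 times equally. The fits were tested on simulated data. Alternatives were DESeq2 1.42.0, RLE scaling, no filter, a replicate block and leaving out libraries; those leaving out the O3 or O1 libraries of 1 week with testis markers, or using ZT18 alone, were chosen after seeing the data. Symbols, arms and neighbours come from the RefSeq table of Release 6 plus ISO1 MT, in which all 78 genes and 15428 of 15682 matched; it gave no sequences used here.

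The members, gene lists and tests were chosen with earlier results of these data known. Named are the 10 genes highest in B3, the 10 with the lowest largest ratio, up to 4 rises and falls per tested contrast, up to 3 per test of time of day, neighbours, those at the threshold and every gene with a symbol. Other genes named in the text were chosen after their values were seen.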

Additional observations from a re-analysis of the deposited data

Results flagged for a closer look

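CG33926, the STING-regulated gene, rose more with age in O3 than in O1. The log2 change was 3.90 ± 0.23 in O3 and 1.80 ± 0.21 in O1, a difference of 2.10 ± 0.29 with an adjusted p of 0.01 by edgeR's quasi-likelihood test, which was chosen after the data were seen. All 3 libraries of each strain at 6 weeks were above all 3 at 1 week. The difference was 1.94 to 2.35 with any 1 library left out. Its adjusted p was 0.0525 without O1 library 1 of 6 weeks, and 0.172, with a difference of 1.76, without O3 libraries 1 and 2 of 1 week.

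The daily course of salr, the spalt-related regulator of flight muscle, differed between O3 and O1, with an adjusted p of 0.0137 for time of day by line, also tested after the data were seen. Where O3 was highest at ZT0, with 43.97 to 49.0 CPM, O1 was at 27.5 to 30.5 CPM. At ZT18 O1 had its highest value, 39.2 CPM, in a single library. With any 1 other library left out the adjusted p was 0.00418 to 0.0439.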

How the results depend on the processing

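The number of genes chosen was 71 to 84 with another pseudocount, 60 with a limit of 0.5 and 95 with 0.6, and 74 to 80 with any 1 library left out; O1 at ZT18 has only 1 library, which was not left out. CG13117, the gene closest to the limit, dropped out most often, in 12 of 48 such settings. Counts of called genes moved most as follows. Without O3 libraries 1 and 2 of 1 week, the age change in O3 was called for 20 genes in place of 51, and O3 against O1 at 1 week for 2 in place of 9. DESeq2 called 14 there, 7 in place of 3 at 6 weeks, where no filter gave 1, and 13 in place of 8 for time of day in O1. ZT18 alone gave 3 in place of 18 for mhc>timeless against mhc. With 1 library left out, counts of age change were 33 to 44 in B3, 21 to 29 in O1 and 38 to 52 in O3. For O3 against O1 they were 5 to 14 at 1 week, 1 to 6 at 6 weeks and 20 to 29 over the day. For time of day they were 14 to 23 in B3, 6 to 10 in O1, 10 to 17 in O3, 15 to 22 in mhc and 9 to 14 in mhc>timeless, and for mhc>timeless against mhc 11 to 20. Over all single genes and left-out libraries, 4029 calls held and 516 did not. The signs of CycA in the age change of O3 without those 2 libraries, at 0.22, and of CG34215 at ZT18 alone, at 0.0577, were reversed, with neither called. The cause of these shifts was not tested.

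Replicate numbers were not taken to pair the libraries: correlations of deviations between libraries of the same number ranged from -0.783 to 0.745 in the age set, -0.518 to 0.541 in the day set and -0.289 to 0.536 in the transgenic set. All 3 pairs exceeded 0.1 between ZT0 and ZT12 in O3, at 0.162 to 0.414, and between ZT6 and ZT18 in mhc>timeless, at 0.163 to 0.463, but not over all times of a line nor between the strains, ages or genotypes compared. With a replicate block the counts were 41, 27 and 51 for age change in B3, O1 and O3, 8, 3 and 26 for O3 against O1 at 1 week, at 6 weeks and over the day, 17, 8, 17, 18 and 13 for time of day in B3, O1, O3, mhc and mhc>timeless, and 17 for mhc>timeless against mhc. With the block the age changes of Dpt and DptB in B3 had adjusted p-values of 0.05015 and 0.0618. Depth limits genes near the floor of 3 counts, among them CR42653, Gr39b and mir-317 in O1 and O3.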
